A study of Mus musculus with 4 samples.

Results

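Genes of 10 integrin subunits were followed in skeletal stem/progenitor cells of the mouse skull and tibia: *Itgav*, which encodes the sorting antigen CD51, 4 genes of beta subunits (*Itgb1*, *Itgb3*, *Itgb5*, and *Itgb8*), 2 further alpha subunits that bind matrix proteins with an RGD motif (*Itga5* and *Itga8*), and 3 alpha subunits of collagen receptors (*Itga1*, *Itga10*, and *Itga11*). They were taken by symbol for what their proteins do, with earlier results of these data known, and all 10 were listed among 23946 symbols. Bulk RNA-seq had been made from wild-type CD-1 mice at postnatal day 3, with 1 library from each of 3 cranial sutures, the coronal (COR), the sagittal (SAG), and the posterior frontal (PF), and 1 from the growth plate (GP) of the tibia. Every library came from pooled mice and from cells sorted by FACS as CD51+ and CD200+, and as negative for CD105, 6C3, Thy1.1, Thy1.2, Tie2, CD45, and Ter119. PF is the suture that closes physiologically, SAG and COR stay patent, and GP served the study as the reference. Values are FPKM, the authors' estimate of fragments corrected for the length of the transcript and the depth of the library. Because there was 1 library per tissue, no spread between replicates exists, no test was made, and what belongs to a tissue and what belongs to its library cannot be told apart.

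Integrins are receptors of 1 alpha and 1 beta chain that fix cells to extracellular matrix and couple it to actin. The alpha v chain pairs with beta 1, beta 3, beta 5, beta 6, or beta 8 and binds RGD-bearing proteins such as vitronectin, fibronectin, osteopontin, and the latent form of TGF-beta. The beta 1 chain is shared by many receptors, among them alpha 1 beta 1, alpha 2 beta 1, alpha 10 beta 1, and alpha 11 beta 1, which bind collagen. Inside the cell, talin and kindlin dock on NPxY-type motifs in the beta tail, while most alpha tails begin with a GFFKR motif that lies next to the membrane.

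The coding sequences of those motifs are shown because the receptors described below differ in them. In the GENCODE models of mm9, and within the last 75 codons of each gene's longest coding transcript, *Itgb1* held 2 NPxY motifs, *Itgb3* and *Itgb5* held 1 each, and *Itgb8* held 0. Of 21301 mouse genes searched in the same window, 0.493% held an NPxY motif. In the following runs of 36 bases, written 5′ to 3′ on the coding strand, capitals mark the codons of the first NPxY. The last coding bases before the stop codon of *Itgb8* are given for contrast, all in lower case.
Itgb1: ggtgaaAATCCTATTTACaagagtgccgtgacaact
Itgb3: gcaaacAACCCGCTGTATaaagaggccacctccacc
Itgb5: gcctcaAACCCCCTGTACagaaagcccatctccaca
Itgb8: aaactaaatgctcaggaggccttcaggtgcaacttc
In mm9 these lie at chr8:131255923-131255958, chr11:104528394-104528429, chr16:33948743-33948778, and chr12:120401593-120401628, respectively, the last on the minus strand.

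All 6 alpha subunits carried the first 3 residues of the GFFKR motif in that window, as did 1.005% of the genes searched. The complete motif was held by *Itgav*, *Itga5*, and *Itga1*, and by 0.0563% of the genes searched, whereas *Itga8*, *Itga10*, and *Itga11* encode another residue at 1 of its last 2 positions. Capitals mark the 5 codons at the motif in these runs of 36 bases, each of which lies within 1 exon, as do the beta runs.
Itgav: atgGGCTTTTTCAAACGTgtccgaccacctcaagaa
Itga5: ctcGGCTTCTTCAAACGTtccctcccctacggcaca
Itga8: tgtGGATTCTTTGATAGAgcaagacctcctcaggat
Itga1: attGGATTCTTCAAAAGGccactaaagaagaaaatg
Itga10: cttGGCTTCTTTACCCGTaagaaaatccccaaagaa
Itga11: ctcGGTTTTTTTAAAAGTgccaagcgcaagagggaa
Their positions in mm9 are chr2:83643397-83643432, chr15:103175748-103175783, chr2:12030793-12030828, chr13:115750307-115750342, chr3:96466888-96466923, and chr9:62630435-62630470, with *Itga5*, *Itga8*, and *Itga1* on the minus strand.

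The 10 genes spanned more than 2 orders of magnitude, and a pair of beta genes made up most of their signal. *Itgb1* and *Itgb5* together accounted for 86.0% of the members' summed FPKM in PF, 85.9% in COR, 84.8% in SAG, and 79.0% in GP. The sum itself was highest in COR at 685 FPKM, followed by PF at 518, GP at 398, and SAG at 289. No member was listed at 0, and *Itgb8* was below 1 FPKM in SAG and COR. The number of sequenced fragments is not given with FPKM, so it was approximated from the smallest step of low values, by which PF was sequenced to 44.6% of the depth of SAG. By that estimate a member's value rested on between 118 fragments (*Itgb3* in PF) and 33961 fragments (*Itgb1* in COR).

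**Figure D1:**
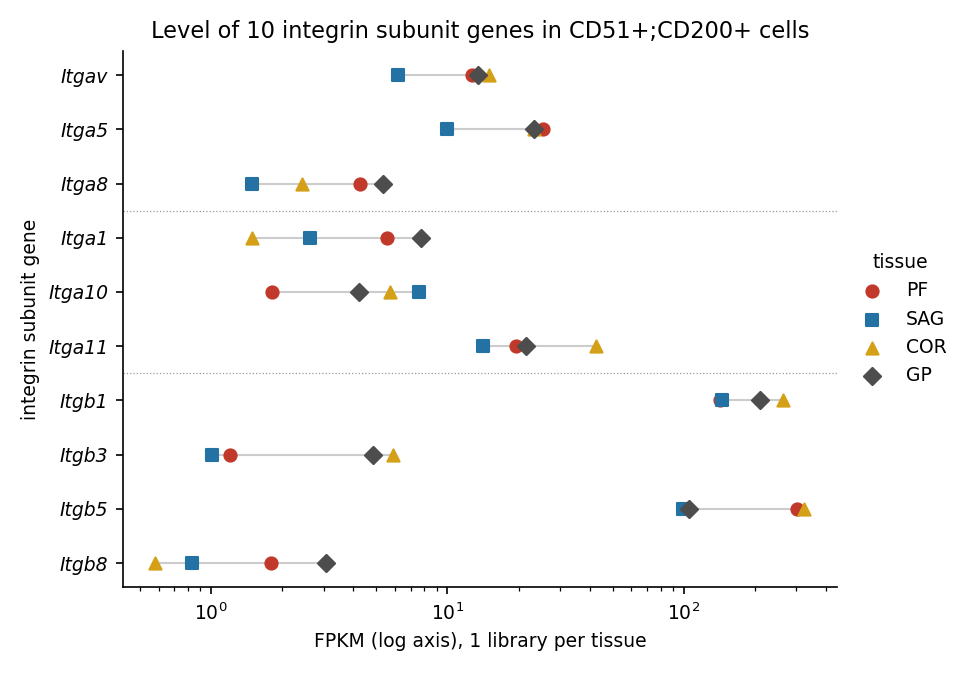
FPKM (log axis) of the 10 integrin subunit genes, with 1 point for each of the 4 libraries and dotted lines between RGD-binding alpha, collagen-binding alpha, and beta subunits. *Itgb1* and *Itgb5* lie at 99.1 FPKM or above in every library, whereas *Itgb3* and *Itgb8* stay below 6 FPKM, and SAG is the lowest point for 6 of the 10 genes.

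*Itgav* (mm9 chromosome 2, 83564554 to 83647073, plus strand) was highest in COR with 14.99 FPKM, then GP with 13.5 and PF with 12.7, and lowest in SAG with 6.20. The first 3 of these lay close together, and SAG stood below each of them by about a factor of 2. On the log2(FPKM + 1) scale, *Itgav* differed by 1.15 between COR and SAG, 0.93 between PF and SAG, and -1.01 between SAG and GP. None of these reached 3-fold, which is 1.58 on that scale and is the fold used in the study. *Cd200*, the gene of the second sorting antigen, had its lowest value in PF, with 23.5 FPKM, and 48.1 FPKM in SAG, so the low *Itgav* of SAG was not shared by both sorting antigens. The sort requires CD51 protein on the surface, and transcript level does not measure it.

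Among the possible partners of alpha v, *Itgb5* and *Itgb1* were by far the most abundant. *Itgb5* (chromosome 16, 33829751 to 33949239, plus strand), whose product forms a vitronectin receptor with alpha v alone, was listed at 324 FPKM in COR and 303 in PF, but at 105 in GP and 99.1 in SAG. COR and PF therefore stood together at about 3 times the level of GP and SAG. The log2 difference was 1.70 between COR and SAG, 1.60 between PF and SAG, and 1.62 between COR and GP, all past 3-fold, and 1.52 between PF and GP, just short of it. The transcript of *Itgb5* has a GC content of 57.7%. When the ratios were corrected for GC content, each of these differences kept its direction but none passed 3-fold, with 1.47 between COR and SAG, 1.02 between PF and SAG, 1.47 between COR and GP, and 1.09 between PF and GP.

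*Itgb1* (chromosome 8, 131209554 to 131257100, plus strand) was distributed differently. It was listed at 264 FPKM in COR, 210.0 in GP, 146 in SAG, and 143 in PF, and the log2 difference of -0.88 between PF and COR was the widest between any pair of its libraries. PF and SAG, which differed in *Itgb5*, were -0.03 apart in *Itgb1* on the log2 scale. The order of the 2 genes was therefore not the same in every tissue. *Itgb5* exceeded *Itgb1* by a ratio of 2.12 in PF and 1.23 in COR, and lay below it in SAG (0.681) and GP (0.4998). The ratios within a library do not depend on how the libraries were scaled to each other. After the correction for GC content they were 1.41, 1.26, 0.873, and 0.574 in the same order, on the same side of 1. The transcripts of *Itgb5* (3.09 kb) and *Itgb1* (3.82 kb) are also the shortest of the 10 members, and whether transcript length had a part in their high FPKM was not tested.

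*Itgb3* (chromosome 11, 104469370 to 104531790, plus strand), the partner of alpha v in the vitronectin receptor of osteoclasts and also a beta chain of platelets, divided the libraries along another line. It reached 5.86 FPKM in COR and 4.85 in GP and only 1.20 in PF and 1.01 in SAG. COR and GP were thus several times higher than PF and SAG, which were themselves nearly alike. The difference passed 3-fold between COR and SAG, at 1.77, and between PF and COR, at -1.64, while the ratios to GP were -1.41 for PF and -1.54 for SAG on the log2 scale. Both ratios to GP passed 3-fold when no pseudocount was added, at -2.01 and -2.26. Of 8 marker genes of leukocytes and osteoclasts, *Tyrobp* was at 0 in all 4 libraries, *Ptprc* and *Csf1r* were below 1 FPKM in each, and *Ctsk* ranged from 229 to 576 FPKM. Their summed level was 623 FPKM in PF, 604 in GP, 508 in COR, and 246 in SAG, and most of it was *Ctsk*. The single genes differed in order. *Acp5* was highest in PF, at 69.1 FPKM, whereas *Csf1r*, near the floor, was highest in COR (0.797) and lowest in PF (0.0593). *Cd68*, also low, had the reverse order to *Itgb3*, with 3.63 FPKM in PF, 3.01 in SAG, 0.711 in GP, and 0.484 in COR. The part of such cells in the *Itgb3* values was not tested. Of 6 markers of megakaryocytes and platelets, the summed level was between 3.33 and 5.39 FPKM.

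*Itgb8* (chromosome 12, 120396495 to 120477275, minus strand), which with alpha v activates latent TGF-beta, was scarce throughout, with 3.07 FPKM in GP, 1.80 in PF, 0.831 in SAG, and 0.581 in COR. Its highest and lowest values differed by a factor of 5.29, but on the log2(FPKM + 1) scale the difference between COR and GP was -1.37 and did not reach 3-fold. Without a pseudocount it was -2.40. *Itgb6*, the remaining partner of alpha v and no member of the list, is listed at 0 in COR and GP and was at 0.960 FPKM in PF and 0.233 in SAG.

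Set against all 5 of its partners, *Itgav* was the minor transcript in every library. The ratio of *Itgav* to the summed FPKM of *Itgb1*, *Itgb3*, *Itgb5*, *Itgb6*, and *Itgb8* was 0.0418 in GP, 0.0283 in PF, 0.0252 in COR, and 0.0251 in SAG. *Itgb5* contributed 67.4% of that sum in PF, 54.5% in COR, 40.2% in SAG, and 32.5% in GP. *Itgb1* contributed most of what was left, from 31.7% in PF to 65.0% in GP. The share of *Itgb3* was at most 1.501%, in GP, and that of *Itgb8* at most 0.952%, also in GP. Because beta 1 is shared with other alpha chains, *Itgav* was also compared with *Itgb1* alone, and the ratio was 0.0891 in PF, 0.0643 in GP, 0.0568 in COR, and 0.0426 in SAG. With the GC correction, *Itgav* over the summed partners was 0.0394 in GP, 0.0375 in PF, 0.0249 in COR, and 0.0222 in SAG. PF then stood near GP in that ratio. The share of *Itgb5* was then 57.9% in PF, 55.2% in COR, 46.2% in SAG, and 35.6% in GP. These shares describe transcripts, and how the chains paired was not measured.

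**Figure D2:**
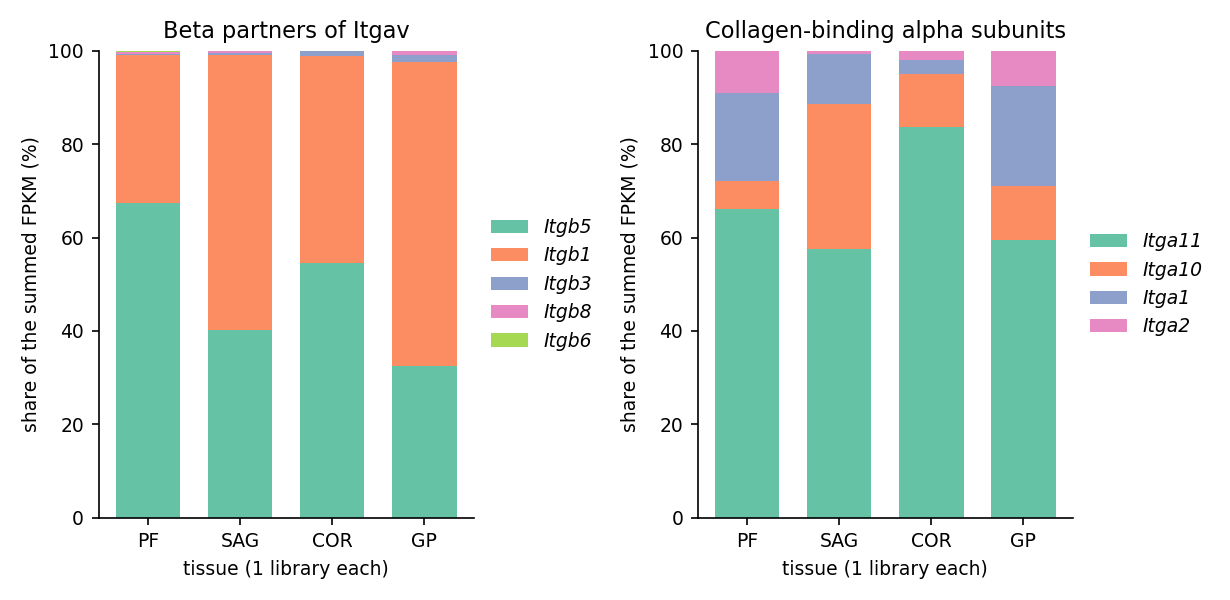
Share (%) of each gene in the summed FPKM of the 5 beta partners of *Itgav* (left) and of the 4 collagen-binding alpha subunits (right), 1 bar for each library. *Itgb5* takes 67.4% of the left bar in PF and 32.5% in GP, and *Itga10* takes 30.9% of the right bar in SAG and 6.07% in PF.

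*Itga5* (chromosome 15, 103174720 to 103197194, minus strand), the alpha chain of the classical fibronectin receptor, followed *Itgav* more closely than any other member did. Its values were 25.3 FPKM in PF, 23.3 in COR, 23.3 in GP, and 10.01 in SAG. As with *Itgav*, the first 3 were nearly level and SAG was about a factor of 2 below them, with a log2 difference of 1.26 between PF and SAG. The Euclidean distance between the centred log2(FPKM + 1) values of *Itga5* and *Itgav* over the 4 libraries was 0.274, the smallest of any pair of members. *Itga8* (chromosome 2, 12028259 to 12223547, minus strand), a receptor chain for nephronectin, was lower and ordered differently, with 5.34 FPKM in GP, 4.28 in PF, 2.43 in COR, and 1.49 in SAG. No pair of libraries differed by 3-fold in *Itga8*, the largest difference being -1.35 between SAG and GP.

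The same measure over the 6635 other genes that reached 5 FPKM in every library placed *Shfm1* nearest to *Itgav*, at a distance of 0.0604. *Epdr1* (0.0866), *Fam63b* (0.0927), *Pkd1* (0.103), and *Nme2* (0.114) came next. *Shfm1* was listed at 915 FPKM in COR, 877 in GP, 794 in PF, and 427 in SAG, a far higher level with the same low value in SAG. With only 4 libraries, nearness of this kind describes these libraries and carries no test.

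The 3 collagen receptor chains among the members each had their own order. *Itga11* (chromosome 9, 62525633 to 62631789, plus strand), a receptor of fibrillar collagen in mesenchymal cells, was the most abundant of them everywhere, with 42.4 FPKM in COR, 21.5 in GP, 19.6 in PF, and 14.2 in SAG. COR stood apart at about a factor of 2 or more above the rest, with a log2 difference of 1.52 from SAG, short of 3-fold, and -1.07 for PF compared with COR. Relative to *Gapdh*, the difference between COR and SAG was 1.78 and passed 3-fold. PF and SAG differed by 0.44, and by -0.01 after the GC correction.

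*Itga10* (chromosome 3, 96449507 to 96468442, plus strand), the collagen receptor chain of chondrocytes, ran in the opposite direction between PF and SAG to most members. It was listed at 7.59 FPKM in SAG, 5.74 in COR, 4.22 in GP, and 1.80 in PF. PF was the low library, and the log2 difference of -1.62 between PF and SAG passed 3-fold. It was -1.94 after the GC correction, but did not pass after quantile normalization, at -1.53, or relative to *Gapdh*, at -1.22. The summed level of 8 chondrocyte markers was 3365 FPKM in SAG, 1120 in GP, 229 in PF, and 176 in COR, all 8 being at 1 FPKM or more in each library. SAG was thus highest for *Itga10* and for this sum, but COR was second for *Itga10* and lowest for the sum. The single markers differed in order. Of the 8, 5 were higher in SAG than in GP and 3 were lower, among them *Acan* (25.9 and 59.0 FPKM). *Col9a1*, *Hapln1*, *Matn1*, and *Lect1* were lowest in PF, as was *Itga10*, and the other 4 were lowest in COR. The part of chondrocyte RNA in the *Itga10* values was not tested.

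*Itga1* (chromosome 13, 115748287 to 115892172, minus strand), a receptor chain for collagen and laminin found on smooth muscle and other mesenchymal cells, was listed at 7.75 FPKM in GP, 5.55 in PF, 2.63 in SAG, and 1.49 in COR. Its lowest library was the one in which *Itga11* was highest, and the difference of -1.81 between COR and GP passed 3-fold. Between PF and COR it was 1.39, and 1.69 after the GC correction. *Itgb8* was the member nearest to *Itga1*, at a distance of 0.423, and *Itgb8* was also nearest to *Itga8*, at 0.514, so that *Itga1*, *Itga8*, and *Itgb8* all had GP first and PF second, an order that for *Itga8* turned under some of the alternatives, where PF compared with GP ranged from -0.37 to 0.12. The summed FPKM of 6 mural cell markers was 642 in PF, 507 in GP, 289 in COR, and 65.5 in SAG, most of it *Acta2*. *Myh11*, the smooth muscle myosin, was at 19.2 in GP and 17.3 in PF but 3.46 in COR and 0.425 in SAG. *Rgs5* and *Mcam* also had GP first and PF second. The other markers differed, as *Acta2* and *Pdgfrb* had PF first and *Cspg4* had COR first (19.7) and PF last (8.81). *Pdgfrb* was also higher in COR (26.7) than in GP (20.5). The part of mural cells in the values of *Itga1*, *Itga8*, and *Itgb8* was not tested. In bulk samples, fewer cells of a type and less RNA per cell cannot be told apart.

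Within the collagen-binding alpha chains, *Itga2* included, *Itga11* supplied 83.7% of the summed FPKM in COR, 66.1% in PF, 59.4% in GP, and 57.7% in SAG. What made up the rest differed: *Itga10* supplied 30.9% in SAG but 6.07% in PF, and *Itga1* supplied 21.4% in GP and 18.7% in PF but 2.95% in COR. *Itga11* exceeded *Itga10* by a ratio of 10.9 in PF, 7.38 in COR, 5.09 in GP, and 1.87 in SAG.

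The members were then counted between each pair of libraries, among genes that reached 1 FPKM in either of them. Between PF and SAG, 2 of 10 members passed 3-fold, *Itgb5* higher and *Itga10* lower in PF. Over all genes 15.7% passed in either direction, 6.64% higher and 9.04% lower in PF. The members' median log2 ratio was 0.73, compared with 0.03 over 13490 genes, and 8 of 10 were higher in PF. Between PF and COR, *Itgb3* was the only member of 10 to pass, lower in PF, where 11.7% of all genes passed in either direction and 4.87% in that direction. The members' median was -0.16, and that of 12853 genes was 0.05. Relative to *Gapdh*, which shifts every gene alike, the medians were 0.08 and 0.28, *Itgb3* had -1.52 and no longer passed, and *Itga1* passed at 1.63. Between COR and SAG, 2 of 9 members passed, *Itgb3* and *Itgb5*, both higher in COR, against 9.25% of all genes in either direction and 3.11% higher in COR. The members' median there was 1.14, with 7 of 9 higher in COR, and the median of 12720 genes was -0.02.

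Compared with GP, 0 of 10 members passed 3-fold in PF and 0 of 10 in SAG, where 12.0% and 8.66% of all genes passed. In COR, *Itgb5* was higher and *Itga1* lower than in GP, 2 of 10 members, where 4.40% of all genes passed, 1.20% higher and 3.20% lower in COR. In SAG, 9 of 10 members were nevertheless lower than in GP, with a median of -1.08 for the members and 0.03 over 12929 genes. *Itga10* was the exception. The count was 8 of 10 after quantile normalization, after scaling every library to the same total FPKM, and after the GC correction, because *Itgb5* then changed sign. The median was -0.34 for PF compared with GP and 0.19 for COR compared with GP, where all genes had 0.03 and 0.02. Relative to *Gapdh*, the medians for PF compared with GP were 0.06 for the members and 0.44 for all genes.

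At 2-fold, 4 of 10 members passed between PF and SAG (34.7% of all genes), 4 of 10 between PF and COR (29.4%), 5 of 9 between COR and SAG (20.1%), 2 of 10 between PF and GP (29.1%), 6 of 10 between SAG and GP (18.0%), and 3 of 10 between COR and GP (9.95%). For PF, the members' share was near or below that of all genes in comparison with GP. The comparisons share libraries, so their counts are not independent of each other.

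**Figure D3:**
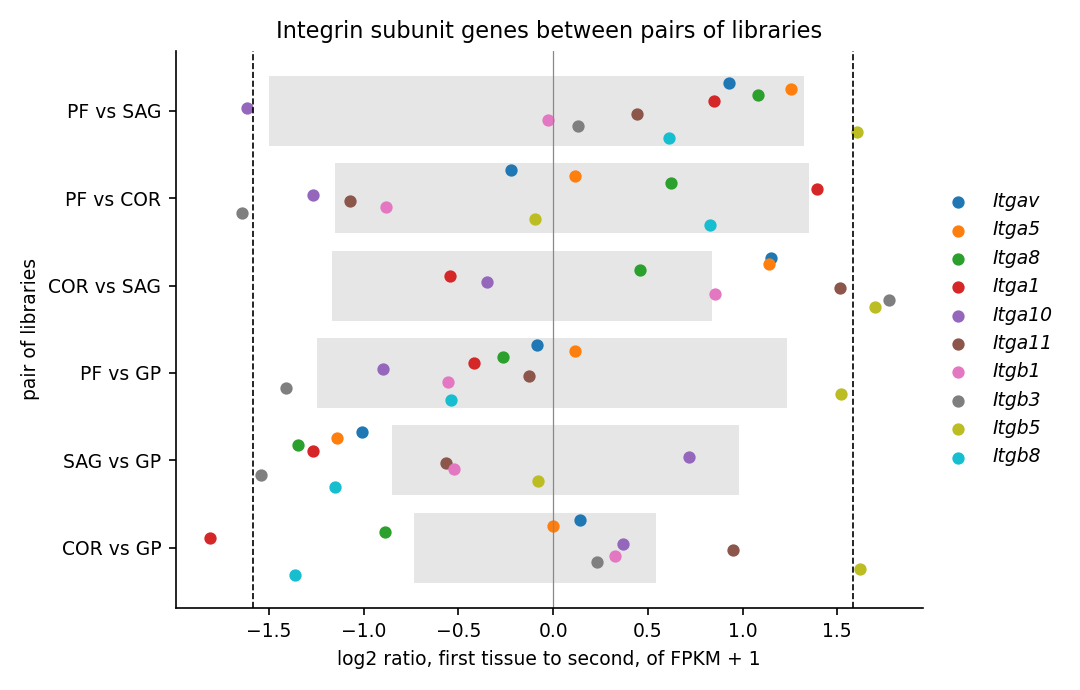
Log2 ratio of FPKM + 1 of each member (coloured points) in the 6 pairs of libraries, with grey bars from the 10th to the 90th percentile of all genes compared and dashed lines at 3-fold. The points past the lines are *Itgb5* in 3 pairs, *Itgb3* in 2, and *Itga10* and *Itga1* in 1 each; 6 members lie to the left of the grey bar for SAG vs GP.

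The mouse has 17 other integrin subunit genes in the list used, and most were low. Of these, 8 reached 1 FPKM in PF or SAG, and 1 of the 8 passed 3-fold between them, near the 15.7% of all genes. It was *Itga2*, a collagen receptor chain, with 2.70 FPKM in PF and 0.185 in SAG, and it also passed between SAG and GP (2.73 FPKM). The laminin receptor chain *Itga7* was listed at 12.7 FPKM in SAG, 12.3 in PF, and 11.8 in GP but 1.34 in COR, and was past 3-fold in each of the 3 pairs with COR. *Itga6*, another laminin receptor chain, was at 13.2 FPKM in GP, 4.04 in PF, 3.07 in SAG, and 1.35 in COR, past 3-fold for GP compared with SAG and with COR. *Itga9*, a receptor chain for tenascin-C and other matrix proteins, was at 9.20 FPKM in COR, 6.83 in GP, 5.29 in SAG, and 2.69 in PF. COR was thus the lowest library for *Itga6*, *Itga7*, *Itga1*, and *Itgb8*, and the highest for *Itgb1*, *Itgb3*, *Itgb5*, *Itgav*, *Itga9*, and *Itga11*. The leukocyte chains *Itgal*, *Itgam*, *Itgax*, and *Itgb2* were below 0.2 FPKM in every library.

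Few of the adaptors that tie integrin tails to actin passed 3-fold. Of 26 listed, 22 were compared in each pair, and at most 1 passed 3-fold in any of them. Between COR and GP, 1 of 22 is near the 4.40% of all genes, and the shares of all genes in the other pairs were between 8.66% and 15.7%. It was *Lims2*, which encodes PINCH2, in 4 of the pairs, with 16.0 FPKM in PF, 12.9 in GP, 3.34 in SAG, and 2.54 in COR. *Vcl*, which encodes vinculin, passed between COR (51.2 FPKM) and SAG (14.6). The abundant *Ilk*, encoding integrin-linked kinase, had 309 FPKM in COR, 227 in GP, 195 in PF, and 156 in SAG, and *Actn4* ranged from 69.4 in SAG to 116 in COR. The low position of SAG seen for *Itgav* and *Itga5* was also present here. Of 22 adaptors, 20 were lower in SAG than in GP, with a median log2 ratio of -0.64, compared with 47.9% of all genes. In COR, 19 of 22 were higher than in SAG, with a median of 0.62, compared with 48.6% of all genes.

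Genes of ligands of the RGD-binding integrins, not all of which carry an RGD motif, passed 3-fold in larger number. Of 18 listed, 8 were past 3-fold higher in COR than in SAG and 2 lower, and the same 8 were past 3-fold lower in PF than in COR. Over all genes, 9.25% passed between COR and SAG, 3.11% being higher in COR, and 4.87% were lower in PF than in COR. The ligand list was chosen with earlier results of these data known. The 8 were *Spp1* (osteopontin), *Ibsp* (bone sialoprotein), *Npnt* (nephronectin), *Tnc* (tenascin-C), *Postn* (periostin), *Dmp1*, *Mepe*, and *Tgfb1*. *Spp1* was listed at 8324 FPKM in COR, 6882 in GP, 1649 in PF, and 617 in SAG. *Postn* had 2358 FPKM in COR, 1284 in GP, 191 in SAG, and 166 in PF, and *Ibsp* had 1575, 761, 104, and 123 FPKM in the same order. These 3 genes, like *Itgb3*, had COR and GP above PF and SAG.

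*Vtn*, the gene of vitronectin, had the reverse order, with 67.6 FPKM in PF, 26.4 in SAG, 2.46 in GP, and 1.14 in COR. PF and SAG were past 3-fold above GP. *Npnt*, the ligand of alpha 8 beta 1, was at 113 FPKM in COR and between 8.72 and 20.9 elsewhere, whereas *Itga8* was highest in GP. *Fn1*, the fibronectin gene, was at 150.4 FPKM in GP, 142 in COR, 138 in SAG, and 67.8 in PF, and passed 3-fold in no pair. The summed level of 8 osteoblast markers, of which *Ibsp* and *Dmp1* are also in the ligand list, was 3744 FPKM in COR, 1357 in GP, 1198 in PF, and 284 in SAG.

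**Figure D4:**
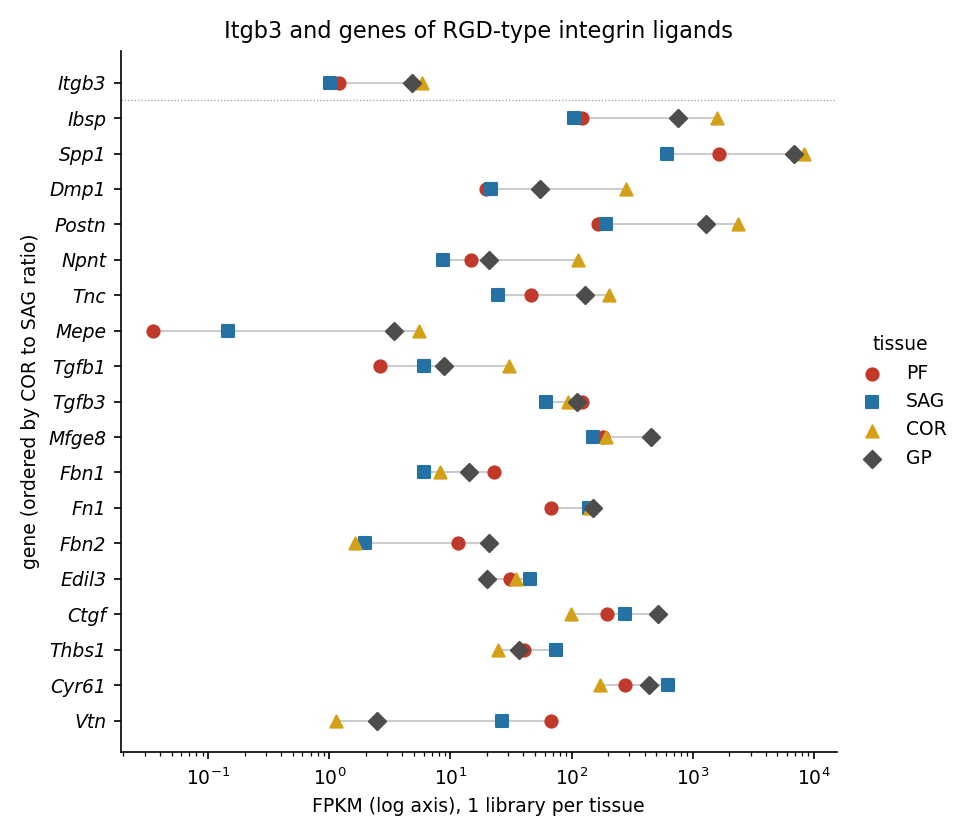
FPKM (log axis) of *Itgb3* and of 18 genes of ligands of the RGD-binding integrins in the 4 libraries, ordered by the ratio of COR to SAG. *Itgb3*, *Spp1*, *Ibsp*, and *Postn* have COR and GP at the right and PF and SAG at the left, and *Vtn* at the bottom has PF and SAG at the right.

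The collagen genes could be set beside their receptors only in part. In COR, 3 fibrillar collagen genes (*Col3a1*, *Col1a2*, and *Col1a1*) are listed at 0, as is *Col1a2* in GP, although *Col5a1* was at 457 FPKM in COR, and such zeros may be failed estimates, so no fold is given for them. Among the others, *Col2a1*, the main collagen of cartilage, reached 1749.8 FPKM in SAG and 1731 in GP, but 35.4 in COR and 31.4 in PF, and *Col9a1* was at 404 FPKM in SAG, 113 in GP, 13.1 in COR, and 6.15 in PF. *Itga10* had its highest value in SAG as well, and its lowest in PF. *Col6a1* was at 704 FPKM in COR, 549 in GP, 516 in PF, and 189 in SAG, and *Col5a1* and *Col5a2* also had COR first and SAG last, the same first and last libraries as *Itga11*.

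Markers of cells outside the sort were examined once for all members. Those of endothelium summed to between 1.21 and 4.37 FPKM in COR, GP, and PF and to 16.9 FPKM in SAG, of which *Kdr* made up 14.9. Choroid plexus markers summed to 5341 FPKM in SAG and to between 51.7 and 505 FPKM in the other libraries, with *Ttr* at 5103 FPKM in SAG. Of 5 such markers compared between COR and SAG, 4 were past 3-fold higher in SAG and 1, *Aqp1*, was past 3-fold lower. *Aqp1* was at 53.8 FPKM in COR, 41.1 in GP, 24.2 in PF, and 11.9 in SAG. Of 7 markers of neurons and glia, 6 reached 1 FPKM in SAG and 2 in each other library, where the summed level was nevertheless higher, from 21.5 to 42.4 FPKM compared with 10.7. Tendon and fibroblast markers summed to 1161 FPKM in SAG and to between 3465 and 5058 FPKM elsewhere. SAG, the library with the lowest *Itgav*, *Itga5*, *Itga8*, and *Itga11*, therefore also had the highest summed levels of chondrocyte and choroid plexus markers, though not of every marker. The part of this in the members' low values was not tested.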

How the data were processed

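Paired-end reads, after FastQC, were mapped by the authors with STAR 2.5.1b to mm9, and expression was estimated with Cuffdiff (Cufflinks 2.2.1) on gene models from Illumina iGenomes. FPKM was deposited for each symbol and tissue. How Cuffdiff scaled the libraries, and the depth, are not given in the sources used here. cDNA was amplified from low input, which adds error that 1 library cannot show. FPKM compares genes within a library per transcript length.

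Each pair of libraries was compared as a difference of log2(FPKM + 1), for genes reaching 1 FPKM in either library, over all 23946 symbols, and counted at 3-fold or more; this scale understates the change of low genes. No p-value was computed. Genes named outside the members were at 5 FPKM or more and past 3-fold in a pair, or among the 3 most abundant of a list. Others were genes of sorting antigens or the 5 genes nearest to *Itgav*. *Itga2*, *Itgb6*, *Fn1*, *Csf1r*, *Tyrobp*, *Cspg4*, and the leukocyte chains were named after their values were seen. Only a part of the genes within the rule is named. The members and lists were chosen with earlier results of these data known. The value of 1 fragment was taken from the smallest steps of FPKM times length over 8095 genes with 1 coding transcript. Positions, lengths, and GC content come from the GENCODE annotation of mm9 (longest coding transcript, matched for 80.8% of symbols and all 10 members). Alternatives changed the pseudocount, scaling, filter, gene type, GC content (lowess, span 0.3), and fold. The code for the ratios was run on simulated data of 8330 genes for PF vs SAG, where 200 of 200 genes changed 8-fold were recovered and 0 others called. The simulation kept genes with a mean of 5 FPKM or more and added noise far smaller than 3-fold, so this outcome was set by its design. It checks the code only and says nothing about the error of the differences reported here. Python 3.11.15, numpy 2.4.6, pandas 2.3.3, statsmodels 0.14.6, biopython 1.88, and matplotlib 3.10.9 were used. A result on an item withheld from this text is not reported here.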

Additional observations from a re-analysis of the deposited data

How the results depend on the processing

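No paired analysis was possible because there is only 1 library of every tissue, and for the same reason no library could be left out and no replicate error is known. Of the 7 differences past 3-fold, none changed sign under the 11 alternatives run, and 12 of the 60 combinations of member and pair, none of them past 3-fold as reported, took both signs. The 7 became 14 with a pseudocount of 0.1, 15 with none, and 24 at 2-fold. The share of all genes that passed rose too. With a pseudocount of 0.1 it was 27.4% between PF and SAG, 22.8% between PF and COR, and 15.8% between COR and SAG. Against GP it was 22.4% for PF, 14.8% for SAG, and 8.26% for COR. Without a pseudocount it lay between 8.04% and 24.8%, and with equal total FPKM between 6.15% and 23.4%. The shares at 2-fold are given above. Of the 2 members past 3-fold between PF and SAG, 1 was left after median ratio scaling, after scaling to equal total FPKM, and after the correction for GC content, and 0 after quantile normalization, where *Itgb5* had 1.27 and *Itga10* -1.53; 4 passed at 2-fold. Of the 2 between COR and SAG, 1 was left after quantile normalization, equal total FPKM, and the GC correction, and 5 passed at 2-fold. Relative to *Gapdh* there were 3, as *Itga11* also passed at 1.78, and 9.29% of all genes passed. The 1 between PF and COR became 3 with a pseudocount of 0.1, 4 without any, 2 after the GC correction, and 4 at 2-fold. Against GP, the 0 of PF became 1 with either pseudocount setting, with equal total FPKM, and relative to *Gapdh*, and 2 at 2-fold. The 0 of SAG became 3 with either pseudocount setting, 1 with quantile normalization and with equal total FPKM, and 6 at 2-fold. The 2 of COR became 1 with the GC correction and 3 with either pseudocount setting, with equal total FPKM, and at 2-fold. The count between PF and SAG stayed at 2 relative to *Gapdh*, but *Itga10* (-1.22) no longer passed while *Itga5* (1.76) did. The filters and the limit to protein-coding genes changed none of these counts. Scaling to equal total FPKM moved the median of all genes to -0.26 between PF and SAG and 0.22 between SAG and GP, and scaling to *Gapdh* to 0.49 between PF and SAG. The weakest values in depth were those of *Itgb3* and *Itga10* in PF, at about 118 and 157 fragments.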
